A study of Mus musculus with 23 samples.

Results

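Expression of 10 genes of DNA replication and deoxynucleotide supply was followed across CF and control lungs of the mouse strains BALB/c (BALB) and C57BL/6 (B6). The genes were Mcm2, Mcm3, Mcm4, Mcm5, Mcm6, Mcm7, Rrm1, Rrm2, Tk1 and Tyms, each taken by its symbol wherever a probe set of the array carried that symbol alone. They were 10 of 18193 genes with such a probe set, and 30 of the 45037 probe sets tested belonged to them. A further 1 probe set, annotated to Tyms together with another gene, was not used. Each gene is represented by its brightest probe set, the one with the highest mean over all arrays. Other probe sets are given beside it for part of the comparisons.

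The 23 arrays measured total RNA of the whole right lung. The groups were BALB CF females, BALB CF males, BALB control females, BALB control males, B6 CF females, B6 CF males, B6 control females and B6 control males, with 3 arrays in each group except B6 CF males, which had 2. The design gives CF mice as CF-/- and controls as CF+/+. The targeted allele, the mice's ages and any diet or treatment are not stated in the labels. Nothing in the labels tells whether replicate arrays were from different mice; the p-values therefore reflect the spread of these samples alone, part or all of which may be technical.

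Before a cell copies its DNA, the proteins encoded by Mcm2 to Mcm7 are loaded as a ring onto replication origins, and in S phase that ring is the motor of the replicative helicase. Ribonucleotide reductase, a complex of the large catalytic subunit Rrm1 and the small radical-bearing subunit Rrm2, makes the deoxynucleotides; thymidine kinase (Tk1) and thymidylate synthase (Tyms) supply the thymidine nucleotides by salvage and by new synthesis. Most cells of an adult lung are not dividing, and transcripts of these genes are classically high in cycling cells, where E2F factors are known regulators of many of them.

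Promoters from RefSeq, with the table's build GRCm38.p6, matched 9 of the 10 genes; Mcm7 had 2, so there were 10 promoters, each of 300 bases (250 before and 50 after the gene's start). They were searched on both strands for the E2F letters TTTCCCGC, TTTCGCGC, TTTGCCGC and TTTGGCGC, for the CCAAT box CCAAT, and for TTTGAA, the letters of the cell cycle homology region. E2F letters were present in promoters of 4 genes (Mcm3, Mcm5, Mcm6 and Mcm7), against 2.26% of 32851 promoters of the same length. CCAAT was present for 7 genes, against 37.4% of those promoters, and TTTGAA for Mcm2 alone, against 17.9%. The promoters of the 4 genes on which the strain comparison turns are printed in the sense of the gene, 5′ to 3′, with capitals marking E2F letters and CCAAT on either strand. They are Mcm5 at chr8:75109259-75109558 (plus strand), Mcm6 at chr1:128359656-128359955 (minus strand), Rrm2 at chr12:24708004-24708303 (plus strand) and Tk1 at chr11:117825965-117826264 (minus strand).
Mcm5: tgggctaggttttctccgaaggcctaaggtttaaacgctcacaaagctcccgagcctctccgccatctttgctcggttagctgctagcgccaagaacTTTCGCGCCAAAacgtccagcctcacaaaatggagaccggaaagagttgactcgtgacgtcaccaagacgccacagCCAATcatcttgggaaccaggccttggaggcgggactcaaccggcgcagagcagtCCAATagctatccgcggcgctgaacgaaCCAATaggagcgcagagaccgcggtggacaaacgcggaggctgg
Mcm6: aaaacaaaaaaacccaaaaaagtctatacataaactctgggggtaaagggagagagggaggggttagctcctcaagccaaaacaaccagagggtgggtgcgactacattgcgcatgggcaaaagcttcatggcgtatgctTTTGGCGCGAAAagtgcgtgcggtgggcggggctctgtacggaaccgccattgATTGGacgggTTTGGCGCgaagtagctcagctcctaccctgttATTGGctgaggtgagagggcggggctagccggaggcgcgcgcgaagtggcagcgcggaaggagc
Rrm2: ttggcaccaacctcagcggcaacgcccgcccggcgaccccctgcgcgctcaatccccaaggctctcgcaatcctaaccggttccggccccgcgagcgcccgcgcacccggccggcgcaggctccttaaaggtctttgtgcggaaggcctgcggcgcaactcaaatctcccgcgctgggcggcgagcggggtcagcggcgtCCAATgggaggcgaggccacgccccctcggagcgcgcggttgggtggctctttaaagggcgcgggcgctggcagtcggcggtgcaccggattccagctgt
Tk1: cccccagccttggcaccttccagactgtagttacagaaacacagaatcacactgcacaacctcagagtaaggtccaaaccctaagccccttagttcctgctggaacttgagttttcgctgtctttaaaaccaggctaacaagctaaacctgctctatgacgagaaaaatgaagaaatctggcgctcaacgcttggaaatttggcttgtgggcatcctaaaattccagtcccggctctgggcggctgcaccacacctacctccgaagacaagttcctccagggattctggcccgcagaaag
In Mcm5 and in Mcm6 a capital run holds E2F letters on both strands that overlap, and the E2F letters numbered 2 in Mcm5 and 3 in Mcm6. Rrm2 held 1 CCAAT and no E2F letters, and Tk1 held neither. These matches are a description of the letters in the window.

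All values below are log2 signals, a scale inferred from the deposited values, and differences are on that scale with the standard error (SE) of the fit; a fold is 2 to that difference. A gene counts as higher or lower where limma's p, adjusted by Benjamini-Hochberg over all probe sets, was under 0.05. Levels of different genes come from different probe sets and are not set against each other. For 9 of the 10 genes the brightest probe set was no dimmer than the array's median probe set, 4.59. The exception was Tyms, whose brightest of 4 probe sets averaged 3.78.

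The labels were checked first. Cftr, the gene targeted in CF mice, read 3.49 to 4.42 on BALB CF arrays and 5.40 to 5.85 on BALB control arrays, but 3.86 to 4.31 on B6 CF arrays and 4.04 to 4.58 on B6 control arrays, which overlap. The position of this probe set relative to the targeted exon was not analysed here, so it leaves the B6 genotype labels unchecked. The lung markers Sftpc (surfactant protein C) and Scgb1a1 (club cell secretory protein) read 13.55 to 13.75 on all arrays. Some arrays stood apart by markers of other tissues. The squamous epithelium list averaged 7.87 on the third B6 control male, 6.42 to 7.89 on the 3 BALB CF females, 5.66 on the first B6 control female and at most 4.48 on the other control arrays; the skeletal muscle list averaged 7.40 on the third B6 control male and 6.11 to 7.90 on the BALB CF females. A thymocyte list averaged 5.58 on the third BALB control male and 4.43 to 4.66 on the other control arrays. Gut epithelium genes averaged 4.07 to 4.98 on BALB CF arrays, 4.50 to 6.04 on BALB control arrays, 5.48 on the first B6 control female and at most 4.32 on the other B6 control arrays. For the 10 genes, the CF effects and strain comparisons were also fitted without the arrays high in squamous, muscle or thymocyte markers. So were the counts of pathway and immune gene lists in B6. Counts by sex or by array order, and list results in BALB or between strains, are given only with those arrays in. The BALB control arrays high in gut genes, 5 of the 6 averaging 4.89 or more, were not left out as a set and were left out only 1 at a time.

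**Figure D1:**
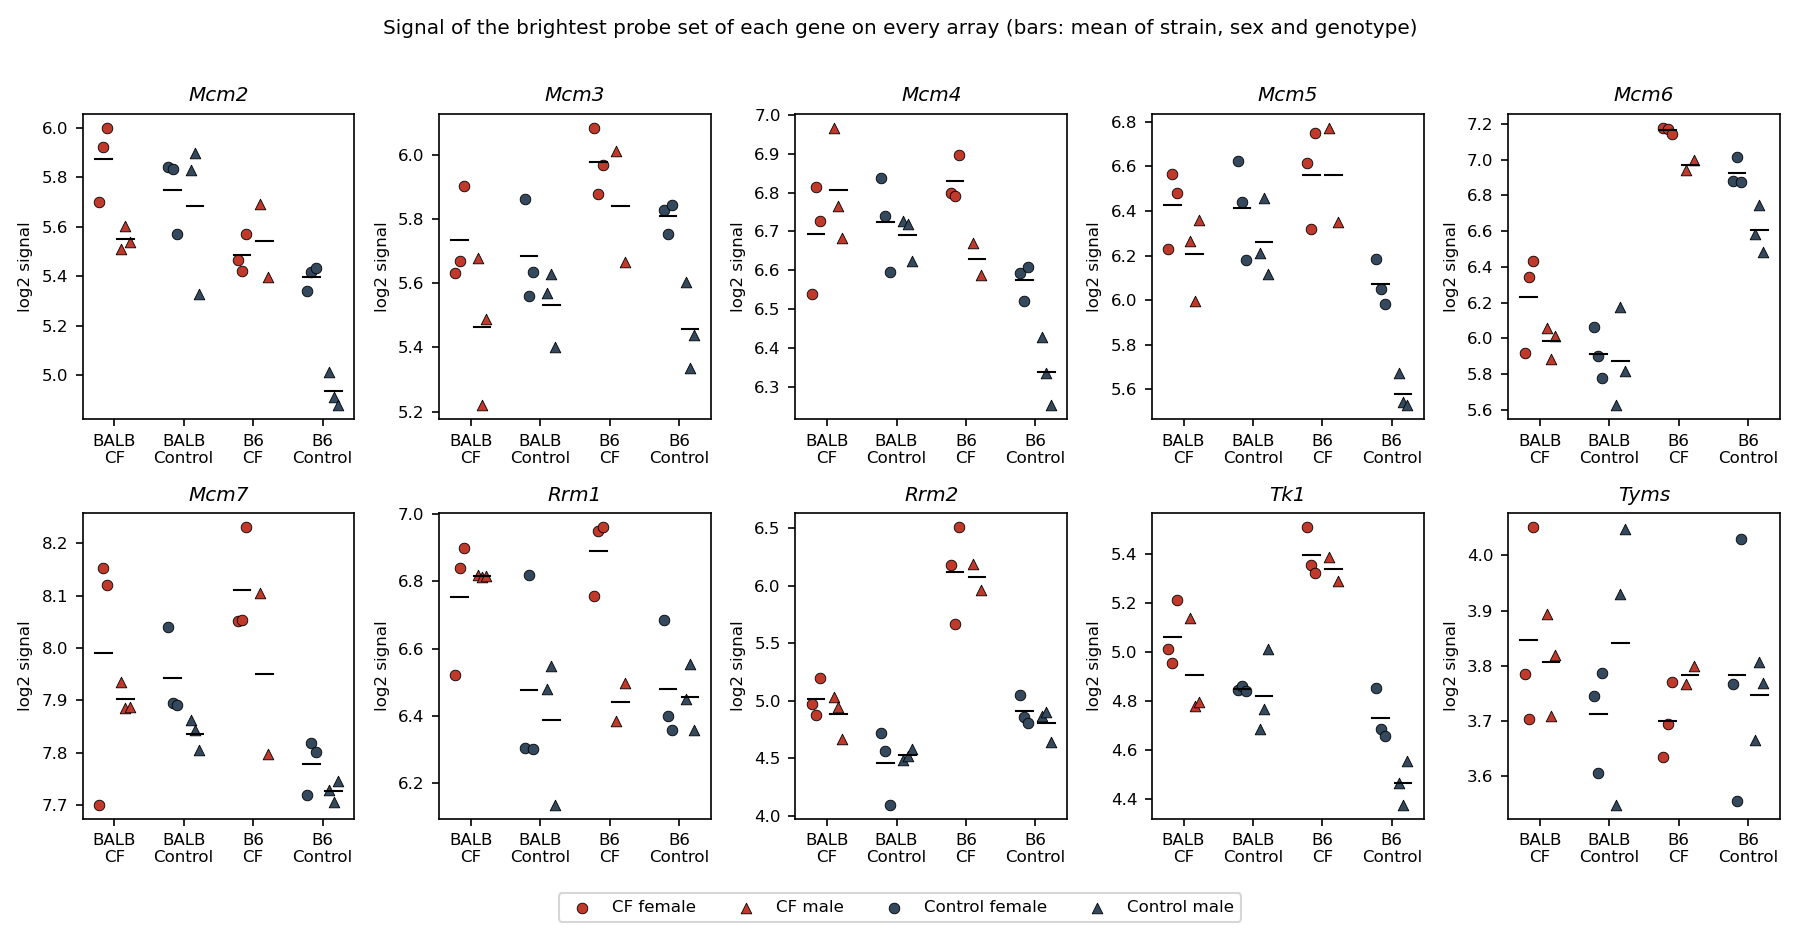
Log2 signal (vertical axis) of the brightest probe set of each of the 10 genes on every array, in the order BALB CF, BALB control, B6 CF and B6 control; each point is an array and each bar a group mean. For Rrm2 the 5 B6 CF arrays (5.67 to 6.51) lie above all 6 B6 control arrays (4.64 to 5.05).

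In B6, CF lungs had higher levels of 6 of the 10 genes and lower levels of none: Rrm2, Tk1, Mcm5, Mcm2, Mcm7 and Mcm4. Over all genes, 3.92% were higher in B6 CF lungs at the same threshold. The median difference of the 10 genes was 0.29, against 0.01 over all genes, and 9 of the 10 differences were positive. Of the 30 probe sets 12 were higher and none lower, where 2.72% of all probe sets were higher. In whole lung, fewer cells of a type and less RNA per cell cannot be told apart, and that holds for every difference below.

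Rrm2, the subunit of ribonucleotide reductase whose abundance changes through the cell cycle, had the largest difference of the 10. It read 6.18, 5.67 and 6.51 in B6 CF females and 6.19 and 5.96 in B6 CF males, against 5.05, 4.86 and 4.81 in B6 control females and 4.87, 4.91 and 4.64 in B6 control males. The lowest CF array, a female, was above the highest control array. The difference was 1.24 (SE 0.13, n = 5 and 6, limma adjusted p = 1.18e-05), a 2.37-fold higher signal. The other 2 probe sets of Rrm2 were also higher, by 0.64 (adjusted p = 0.00195) and 0.93 (adjusted p = 0.00023). Rrm1, the subunit with the catalytic site, did not pass in B6. It read 6.76, 6.95 and 6.96 in B6 CF females and 6.39 and 6.50 in B6 CF males, against 6.68, 6.40 and 6.36 in B6 control females and 6.45, 6.55 and 6.36 in B6 control males. The CF females were above their controls and the CF males were among theirs. The difference over both sexes was 0.20 (95% interval -0.01 to 0.41, limma adjusted p = 0.327), and no Rrm1 probe set passed.

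Of the genes for thymidine nucleotides, Tk1 was higher and Tyms was not shown to differ. Tk1, the cytosolic salvage kinase, read 5.51, 5.36 and 5.32 in B6 CF females and 5.39 and 5.29 in B6 CF males, against 4.85, 4.69 and 4.66 in B6 control females and 4.47, 4.38 and 4.56 in B6 control males. All 5 CF arrays were above all 6 control arrays. The difference was 0.77 (SE 0.08, limma adjusted p = 1.12e-05), or 1.70-fold, from its single probe set. Tyms, which makes thymidylate from deoxyuridylate, read 3.63 to 3.80 on B6 CF arrays and 3.55 to 4.03 on B6 control arrays, dim and overlapping. Its difference was -0.02 (95% interval -0.21 to 0.17, adjusted p = 0.945), and all of its probe sets lay under the median of the array.

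Among the helicase genes Mcm5 stood highest by difference. Mcm5 read 6.61, 6.32 and 6.75 in B6 CF females and 6.77 and 6.35 in B6 CF males, against 6.18, 6.05 and 5.98 in B6 control females and 5.67, 5.54 and 5.53 in B6 control males. The CF arrays were all above the control arrays, and the control males were all below the control females. The difference was 0.73 (SE 0.10, limma adjusted p = 0.00027), or 1.66-fold. A second Mcm5 probe set gave 0.65 (adjusted p = 0.000843), and the third, a dim one averaging 3.05, gave 0.04 (adjusted p = 0.873).

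The other helicase genes differed by less. Mcm2 was higher by 0.35 (SE 0.09, adjusted p = 0.0298), Mcm7 by 0.28 (SE 0.08, adjusted p = 0.0361) and Mcm4 by 0.27 (SE 0.07, adjusted p = 0.0198). Mcm2 read 5.47, 5.42 and 5.57 in B6 CF females and 5.69 and 5.40 in B6 CF males, against 5.34, 5.42 and 5.43 in B6 control females and 5.01, 4.91 and 4.88 in B6 control males. For Mcm2 the CF females overlapped the control females, and the males were apart. Mcm3 (0.27, 95% interval 0.09 to 0.46, adjusted p = 0.0877) and Mcm6 (0.30, 95% interval 0.10 to 0.50, adjusted p = 0.0758) did not pass by their brightest probe sets. Each had another probe set that did: for Mcm3 one at 0.37 (adjusted p = 0.0332), and for Mcm6 one at 0.73 (SE 0.14, adjusted p = 0.00443) that averaged only 4.25 over all arrays. That Mcm6 probe set read 5.40, 5.05 and 5.72 in B6 CF females and 5.26 and 4.93 in B6 CF males, against 5.03, 4.59 and 4.71 in B6 control females and 4.41, 3.91 and 4.40 in B6 control males. Its CF arrays were above the control arrays within each sex, and the lower CF male was below the highest control female. By the brightest Mcm6 probe set the CF arrays read 6.94 to 7.18 and the control arrays 6.48 to 7.01. The dimmest Mcm6 probe set averaged 3.49 on B6 CF arrays and 3.49 on B6 control arrays. Below the brightest, the Mcm3 probe sets averaged 5.66, 5.40, 5.21 and 3.84 on B6 CF arrays, in order of brightness. On B6 control arrays the same Mcm3 probe sets averaged 5.28, 5.06, 5.08 and 3.76.

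Counted by arrays, 7 of the 10 genes had every B6 CF array above every B6 control array of its sex in both sexes: Mcm3, Mcm4, Mcm5, Mcm6, Mcm7, Rrm2 and Tk1. Over all genes this share was 2.85%. The mean of the 10 genes, each taken relative to its own mean over the 23 arrays, was 0.15 to 0.43 on B6 CF arrays and -0.32 to 0.01 on B6 control arrays, so these ranges did not meet.

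Without the 2 B6 control arrays that stood apart, 3 genes passed: Rrm2 (1.24, adjusted p = 6.18e-05), Tk1 (0.82, adjusted p = 3.66e-05) and Mcm5 (0.75, adjusted p = 0.00122). Over all genes the share higher was then 2.75%. Mcm2, Mcm4 and Mcm7 kept differences of 0.32, 0.26 and 0.27 with adjusted p of 0.102, 0.0657 and 0.0994. The same 3 genes passed without the third B6 control male, without the first B6 CF male and without the third B6 CF female, each left out alone; Rrm2, Tk1 and Mcm5 passed without each of the 23 arrays in turn. The call of Mcm7 was lost without any 1 of 9 of the 23 arrays (adjusted p of up to 0.262), that of Mcm2 without any 1 of 7 (up to 0.207) and that of Mcm4 without any 1 of 3 (up to 0.109).

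Markers of several immune cell types were also higher in B6 CF lungs, where 3.92% of all genes were higher. Of the T cell list 12 of 16 measured genes were higher in B6 CF lungs, with a median of 0.69, and its mean level was 5.43 to 5.81 on B6 CF arrays and 4.64 to 5.16 on B6 control arrays. Of the natural killer cell list 6 of 11 were higher (mean level 5.33 to 6.04 on B6 CF arrays and 4.80 to 5.40 on B6 control arrays). Of the monocyte and interstitial macrophage list 6 of 9 were higher (7.65 to 8.22 on B6 CF arrays and 7.23 to 7.54 on B6 control arrays). Of the neutrophil list 5 of 11 were higher (6.72 to 7.37 on B6 CF arrays and 5.44 to 7.07 on B6 control arrays). Of the plasma cell list 3 of 9 were higher and 1 lower, where 1.5% of all genes were lower (6.75 to 7.33 on B6 CF arrays and 6.55 to 6.89 on B6 control arrays). Of the B cell list 1 of 11 was higher, and of the erythroid precursor list limma's test passed 0 of 10. Without the 2 B6 control arrays that stood apart, 2.75% of all genes were higher. Then 12 of 16 T cell, 5 of 11 natural killer cell, 5 of 9 monocyte and 3 of 11 neutrophil genes were higher. For plasma cells it was 3 of 9, with 1 lower, for B cells 0 of 11, for alveolar macrophages 1 of 8 and for germinal centre B cells 0 of 6. With all arrays, Marco of the alveolar macrophage list (0.83, limma adjusted p = 0.0148) and S1pr2 of the germinal centre list (0.27, limma adjusted p = 0.018) were higher. The part of these cells in the levels of the replication genes was not tested.

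By sex, 2 genes were higher in B6 CF females, Rrm2 (1.21, limma adjusted p = 0.00143) and Tk1 (0.66, limma adjusted p = 0.00388), where 0.594% of all genes were higher. In B6 CF males 4 were higher, where 5.13% of all genes were: Rrm2 (1.27, adjusted p = 0.000421), Mcm5 (0.98, adjusted p = 0.000686), Tk1 (0.87, adjusted p = 0.000142) and Mcm2 (0.61, adjusted p = 0.00883). The female effect minus the male effect passed limma's test for 0 of the 10 genes (2 at an unadjusted p under 0.05) and for 2.05% of all genes, the lowest adjusted p being 0.16 for Mcm2 (-0.52, SE 0.18). Within B6 controls, a comparison added after the values were seen, Mcm2 was higher in females than in males by 0.46 (SE 0.12, adjusted p = 0.0425), and all 10 differences were positive; 4.11% of all genes passed in that comparison. In BALB controls, where 0.143% of all genes differed by sex, 0 of the 10 passed limma's test and 0 had an unadjusted p under 0.05.

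In BALB, 2 of the 10 genes were higher in CF lungs and none lower, where 2.87% of all genes were higher. These were both subunits of ribonucleotide reductase. Rrm2 read 4.97, 4.87 and 5.20 in BALB CF females and 5.04, 4.94 and 4.67 in BALB CF males, against 4.72, 4.56 and 4.10 in BALB control females and 4.48, 4.52 and 4.58 in BALB control males. Within each sex the CF arrays were above the control arrays, and across sexes the lowest CF male was below the highest control female. The difference was 0.45 (SE 0.12, n = 6 and 6, limma adjusted p = 0.0314), or 1.37-fold. The other 2 probe sets gave 0.23 and 0.31 and did not pass (adjusted p = 0.258 and 0.156).

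Rrm1 was higher by 0.35 in BALB CF lungs (SE 0.10, limma adjusted p = 0.0359). It read 6.52, 6.84 and 6.90 in BALB CF females and 6.82, 6.81 and 6.82 in BALB CF males, against 6.31, 6.82 and 6.30 in BALB control females and 6.48, 6.55 and 6.14 in BALB control males. The CF arrays lay close together except for the first female, and the second control female lay among them. The other 2 Rrm1 probe sets gave 0.09 (adjusted p = 0.647) and -0.03 (adjusted p = 0.88), so the call rests on 1 probe set.

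Neither BALB call held under every alternative. Leaving out 1 BALB array could remove both calls. Without the first or second BALB CF male, the first BALB control male, the third BALB CF female or the third BALB control female, 0 of the 10 genes passed. Rrm2 alone was also lost without the second BALB control male, and Rrm1 alone without the third BALB control male, the second BALB CF female, the first BALB control female or the third BALB CF male. Since all 3 BALB CF females stood apart by squamous and muscle markers, the comparison without such arrays was that of males without the third BALB control male. It gave Rrm2 0.38 (adjusted p = 0.448) and Rrm1 0.30 (adjusted p = 0.393), with 0 genes passing limma's test on fewer arrays. Separately by sex, with all arrays, 0 of the 10 genes passed limma's test in BALB females (2 at an unadjusted p under 0.05) or in BALB males (1 at an unadjusted p under 0.05). Over all genes 0.824% were higher in CF among BALB females and 1.38% among BALB males.

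The remaining 8 genes had differences of -0.02 to 0.21 in BALB. Tk1 read 5.01, 4.96 and 5.21 in BALB CF females and 5.14, 4.78 and 4.80 in BALB CF males, against 4.85, 4.86 and 4.84 in BALB control females and 4.68, 4.77 and 5.01 in BALB control males. The CF females were above their controls and the males overlapped. Its difference was 0.15 (95% interval -0.01 to 0.30, adjusted p = 0.298). Mcm5 read 6.00 to 6.57 on BALB CF arrays and 6.12 to 6.63 on BALB control arrays, a difference of -0.02 (95% interval -0.23 to 0.18, adjusted p = 0.948). For Mcm2 the 95% interval was -0.18 to 0.17 (adjusted p = 0.987). For Mcm6 the difference was 0.21 (95% interval 0.02 to 0.40, adjusted p = 0.203). By arrays, 1 of the 10 genes (Rrm2) had CF above control in both sexes, against 2.17% of all genes. The mean of the 10 genes was -0.12 to 0.22 on BALB CF arrays and -0.21 to 0.01 on BALB control arrays, and these ranges overlapped.

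Some immune marker lists also moved in BALB, where 2.87% of all genes were higher. Of the T cell list 6 of 16 were higher (mean level 5.20 to 5.76 on BALB CF arrays and 4.69 to 5.57 on BALB control arrays). Of the B cell list 9 of 11 were higher (5.39 to 6.10 on BALB CF arrays and 4.59 to 5.56 on BALB control arrays), and of the plasma cell list 6 of 9 (7.67 to 7.84 on BALB CF arrays and 6.88 to 7.35 on BALB control arrays). Of the monocyte and interstitial macrophage list 2 of 9 were higher (7.29 to 7.67 on BALB CF arrays and 6.84 to 7.27 on BALB control arrays). Of the neutrophil list 6 of 11 were higher, and of the gut epithelium list 4 of 9 were lower, where 2.66% of all genes were lower. Their part in the levels of Rrm1 and Rrm2 was not tested.

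**Figure D2:**
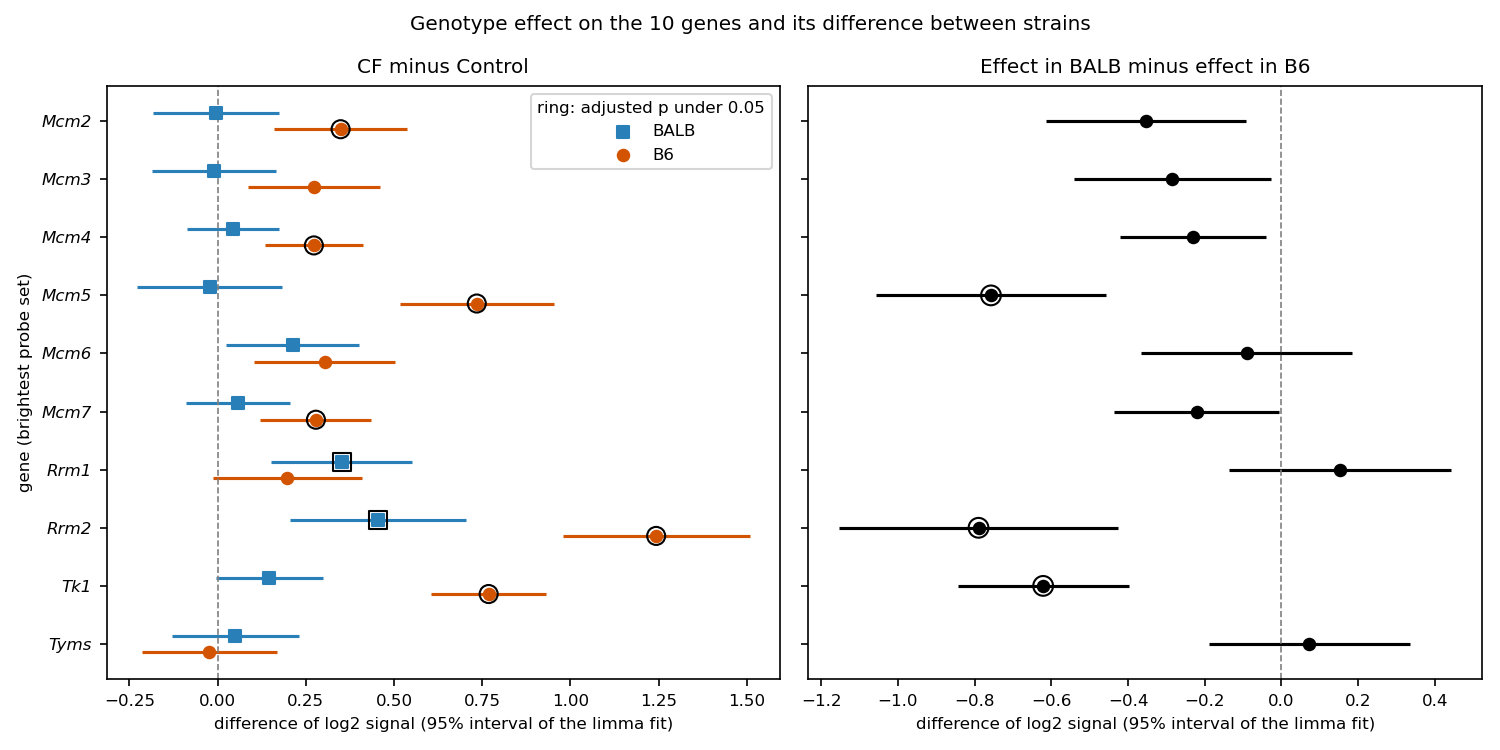
CF minus control difference of log2 signal for each of the 10 genes in BALB and in B6, and the BALB minus B6 difference of those effects; points are estimates, lines 95% intervals, and ringed points passed an adjusted p of 0.05. Rrm2 (-0.79), Mcm5 (-0.76) and Tk1 (-0.62) lie left of 0 in the strain comparison.

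The CF effect differed between the strains for 3 of the 10 genes, where 2.23% of all genes passed, and each of the 3 effects was smaller in BALB. For Rrm2 the BALB effect minus the B6 effect was -0.79 (SE 0.17, limma adjusted p = 0.0182). For Mcm5 it was -0.76 (SE 0.14, limma adjusted p = 0.00672), and for Tk1 it was -0.62 (SE 0.11, limma adjusted p = 0.00318). The other Mcm5 and Rrm2 probe sets had the same sign and did not pass, the closest at -0.61 for Rrm2 (adjusted p = 0.0724) and -0.47 for Mcm5 (adjusted p = 0.083). The dimmer second probe set of Mcm6 gave -0.87 (SE 0.20, adjusted p = 0.0211), while the brightest gave -0.09 (SE 0.13, adjusted p = 0.82). For Mcm2 the difference of effects was -0.35 (95% interval -0.61 to -0.09, adjusted p = 0.146) and for Rrm1 0.15 (95% interval -0.14 to 0.44, adjusted p = 0.668). In males alone, without the arrays that stood apart, Mcm5 (-1.08, adjusted p = 0.024) and Tk1 (-0.74, adjusted p = 0.0192) passed, Rrm2 (-0.81, adjusted p = 0.196) did not, and Mcm2 did (-0.90, adjusted p = 0.00567). BALB control arrays high in gut genes were not left out there as a set. The part of that signal in the strain difference was not tested. Rrm2 also failed when the first B6 CF male was left out of all arrays (adjusted p = 0.0634).

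Levels of these genes also differed between the arrays of the strains. In control lungs 6 of the 10 passed, where 18.2% of all genes did. Gut epithelium genes were also higher on BALB control arrays, such as Fabp2 (2.53, limma adjusted p = 0.000995) and Muc2 (2.28, limma adjusted p = 0.00114), while Reg3g did not pass (0.18). Arrays high in gut genes were not left out as a set, and the part of that signal in the differences was not tested. Higher in BALB than in B6 controls were Mcm2 (0.55, SE 0.09, limma adjusted p = 6.4e-05), Mcm5 (0.51, SE 0.10, limma adjusted p = 0.000708), Mcm4 (0.25, limma adjusted p = 0.00709) and Tk1 (0.24, limma adjusted p = 0.0314). Lower in BALB were Mcm6 (-0.87, SE 0.09, adjusted p = 2.8e-07) and Rrm2 (-0.36, SE 0.12, adjusted p = 0.0449). Mcm2 read a median of 5.83 on BALB control arrays (5.33 to 5.90) and 5.18 on B6 control arrays (4.88 to 5.43). The second Mcm2 and Mcm5 probe sets also passed, at 0.27 (adjusted p = 0.00941) and 0.34 (adjusted p = 0.0195). For Rrm2 the other 2 probe sets did not, at -0.08 and -0.13, and the call was lost without the arrays that stood apart (-0.38, adjusted p = 0.1) and without any 1 of 12 of the 23 arrays. The Tk1 call in controls was lost without any 1 of 8 of the 23 arrays, at adjusted p of up to 0.0941.

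In CF lungs 4 of the 10 genes were lower in BALB than in B6 and none higher, where 19.7% of all genes passed in either direction. They were Rrm2 (-1.15, SE 0.13, adjusted p = 6.86e-07), Mcm6 (-0.96, SE 0.10, adjusted p = 1.61e-07), Tk1 (-0.39, SE 0.08, adjusted p = 0.00105) and Mcm3 (-0.31, SE 0.09, adjusted p = 0.0181). All 3 Rrm2 probe sets passed. Tk1 was thus lower in BALB than in B6 among CF lungs and higher in BALB than in B6 among controls, and Mcm5, at -0.25 in CF lungs (95% interval -0.46 to -0.03, adjusted p = 0.117), was higher in BALB among controls. Both contrasts share arrays with the CF effects above, so they are the same values read across strains. The Mcm3 probe sets disagreed: the next brightest differed by 0.02 in CF lungs (adjusted p = 0.91) and by 0.34 in controls (adjusted p = 0.0141). Without the arrays that stood apart, Rrm2, Mcm6 and Tk1 passed in CF males and Mcm3 did not (-0.38, adjusted p = 0.0916). The Mcm3 call was also lost without the first B6 CF male (adjusted p = 0.158) or the second BALB CF male (adjusted p = 0.0563).

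Mcm6 set the strains apart in both genotypes. Its brightest probe set read 5.92, 6.34 and 6.43 in BALB CF females and 6.06, 5.89 and 6.01 in BALB CF males, against 7.18, 7.17 and 7.14 in B6 CF females and 6.942 and 6.999 in B6 CF males. In controls it read 6.07, 5.90 and 5.78 in BALB females and 5.63, 6.18 and 5.82 in BALB males, against 6.88, 7.01 and 6.87 in B6 females and 6.58, 6.75 and 6.48 in B6 males. No BALB array reached the lowest B6 array. The other 2 Mcm6 probe sets were dim, averaging 4.25 and 3.34 over all arrays, under the median of the array. Their differences had the same sign and passed in both genotypes: -1.62 (adjusted p = 2.68e-08) and -0.74 (adjusted p = 0.000396) by the second, and -0.23 (adjusted p = 0.0299) and -0.31 (adjusted p = 0.00258) by the third, for CF and control lungs in that order. Whether a sequence difference between the strains lies under any of these probes was not tested.

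**Figure D3:**
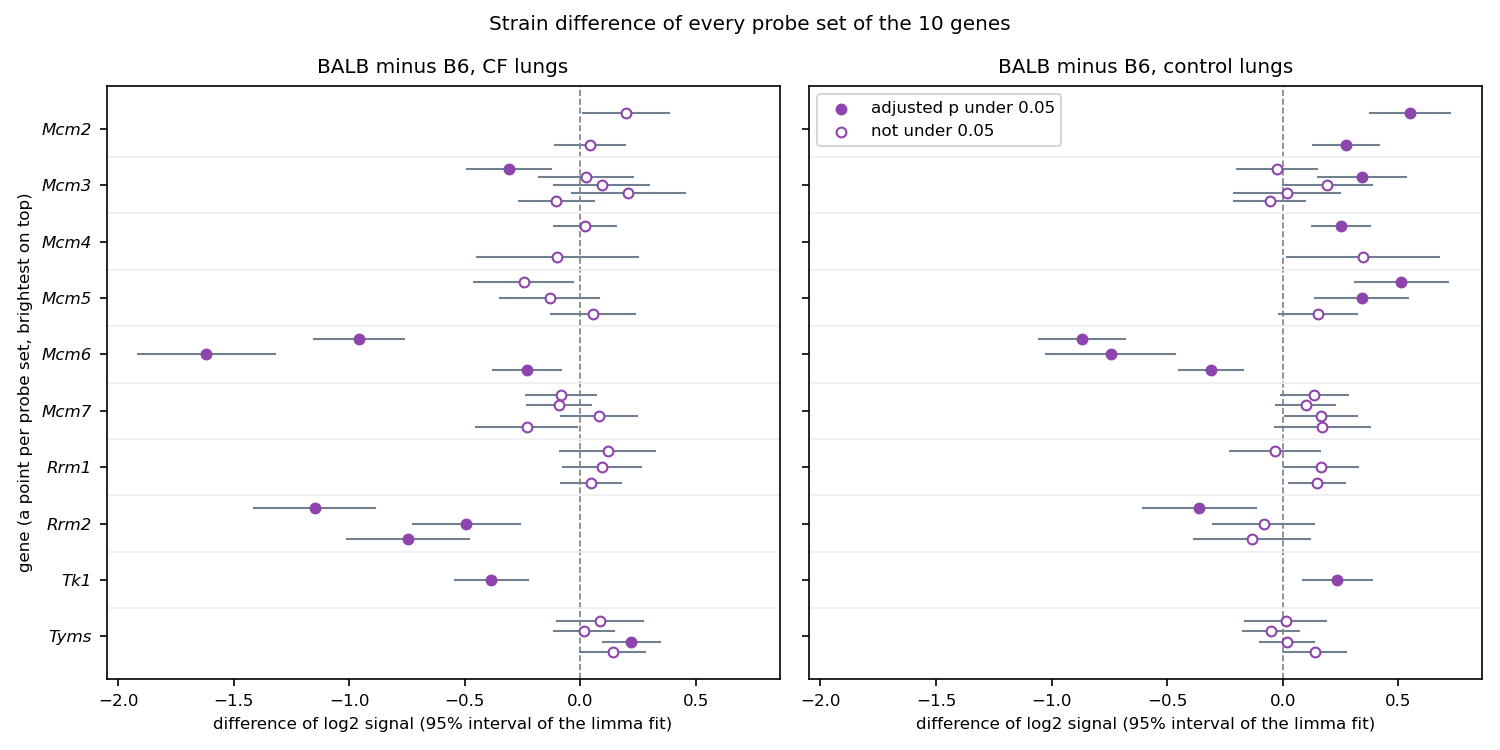
BALB minus B6 difference of log2 signal in CF lungs and in control lungs for all 30 probe sets of the 10 genes, grouped by gene; filled points passed an adjusted p of 0.05 and lines are 95% intervals. All 3 Mcm6 probe sets lie left of 0 in both panels, whereas those of Mcm3 lie on both sides.

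For the 6 helicase genes, the correlation of deviations from the group means was 0.33 to 0.69 over the 23 arrays, with all 15 pairs positive. Over all 45 pairs of the 10 genes it was -0.32 to 0.69, with 39 positive; the lowest was that of Mcm2 with Tk1. All values come from 1 deposited table and may share its scaling, so the correlations describe these arrays. Of 11625 genes no dimmer than the median probe set, those whose values most resembled the mean of the 10 were Cdt1 (r = 0.898), Qars (0.89) and Nrm (0.889), over the 23 arrays and with the group differences included. With group means removed the closest were Lss (0.899), Pcyt2 (0.885) and Slc2a1 (0.869).

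Other genes of the same pathways were set beside the 10. Over all genes 3.92% were higher in B6 CF lungs and 2.87% in BALB CF lungs, and the effect differed between strains for 2.23%. Of 24 measured genes of origin licensing and helicase activation, 3 were higher in B6 CF lungs and none lower (median 0.07), and 0 passed limma's test in BALB (median 0.01). They were Cdt1, which loads the helicase with Cdc6 (0.65, SE 0.11, adjusted p = 0.000996), Gins1, a subunit of the active helicase (0.32, adjusted p = 0.0275), and Cdc6 (0.38, adjusted p = 0.0433). In the same list Dbf4, the activator of the Cdc7 kinase, had 0.41 and did not pass (adjusted p = 0.0543). In BALB the lowest adjusted p of that list was 0.0696, for the origin recognition subunit Orc3 (0.19).

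Of 30 polymerase and fork genes, 9 were higher in B6 CF lungs (median 0.17), among them Top2a, a topoisomerase that untangles daughter DNA (0.85, adjusted p = 0.00217), the catalytic leading-strand polymerase Pole (0.60, adjusted p = 0.000498), the polymerase delta subunit Pold4 (0.42, adjusted p = 0.00222) and the clamp loader subunit Rfc5 (0.41, adjusted p = 0.00225). In BALB CF lungs 2 were higher, the single-strand binding subunit Rpa2 (0.35, adjusted p = 0.00756) and the fork protection protein Tipin (0.29, adjusted p = 0.0463), and the topoisomerase Top1 was lower by 0.34 (log2 difference -0.34, adjusted p = 0.0244). The effect differed between strains for Pole (-0.55, adjusted p = 0.0214) and the DNA ligase Lig1 (-0.52, adjusted p = 0.0265). Pole was dim, averaging 4.36 on B6 CF arrays and 3.78 on B6 control arrays, under the median probe set.

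Of 30 measured genes of nucleotide synthesis and salvage beyond the 10, 3 were higher in B6 CF lungs (median 0.04), where 3.92% of all genes were, and 1 in BALB CF lungs (median 0.02), where 2.87% were. The gene called in both strains was Samhd1, at 0.54 in B6 (adjusted p = 0.000468) and 0.37 in BALB (adjusted p = 0.00673); its product breaks down deoxynucleotides and restricts their pool, the opposite of what the list's name says. The others were Dck, the deoxycytidine salvage kinase (0.50, adjusted p = 0.0245), and Ctps2, a CTP synthase (0.24, adjusted p = 0.0405).

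Of 32 genes of G1 to S control, 3 were higher in B6 CF lungs (median 0.06): Ccna2, the S phase and G2 cyclin (0.88, adjusted p = 1.56e-05), E2f8, a repressive E2F factor (0.33, adjusted p = 0.00261), and Cdkn2d, an inhibitor of Cdk4 and Cdk6 (0.35, adjusted p = 0.0119). E2f8 was dim, averaging 4.04 on B6 CF arrays and 3.72 on B6 control arrays, under the median probe set. In BALB CF lungs 1 was higher, Ccna2 (0.34, adjusted p = 0.0268), and its effect differed between strains by -0.54 (adjusted p = 0.026). Of 10 genes of replication-coupled chromatin assembly, 3 were higher in B6 CF lungs (median 0.21), namely the histone chaperone Asf1b (0.61, adjusted p = 6.78e-05), the histone methyltransferase Ezh2 (0.40, adjusted p = 0.0304) and the maintenance DNA methyltransferase Dnmt1 (0.26, adjusted p = 0.024), and 0 passed limma's test in BALB. Asf1b differed between strains by -0.54 (adjusted p = 0.00679). Of 24 mitosis genes, 17 were higher in B6 CF lungs (median 0.50) and 1 in BALB CF lungs (median 0.10), and 10 had a smaller effect in BALB. The BALB counts of 1 for G1 to S and for mitosis lie near the 2.87% of all genes higher there. Without the 2 B6 control arrays that stood apart, 2.75% of all genes were higher in B6 CF lungs. The counts in B6 were then 3 of 24 for licensing, 6 of 30 for polymerases and fork, and 1 of 30 for nucleotides. They were 4 of 32 for G1 to S, 2 of 10 for chromatin assembly and 15 of 24 for mitosis.

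**Figure D4:**
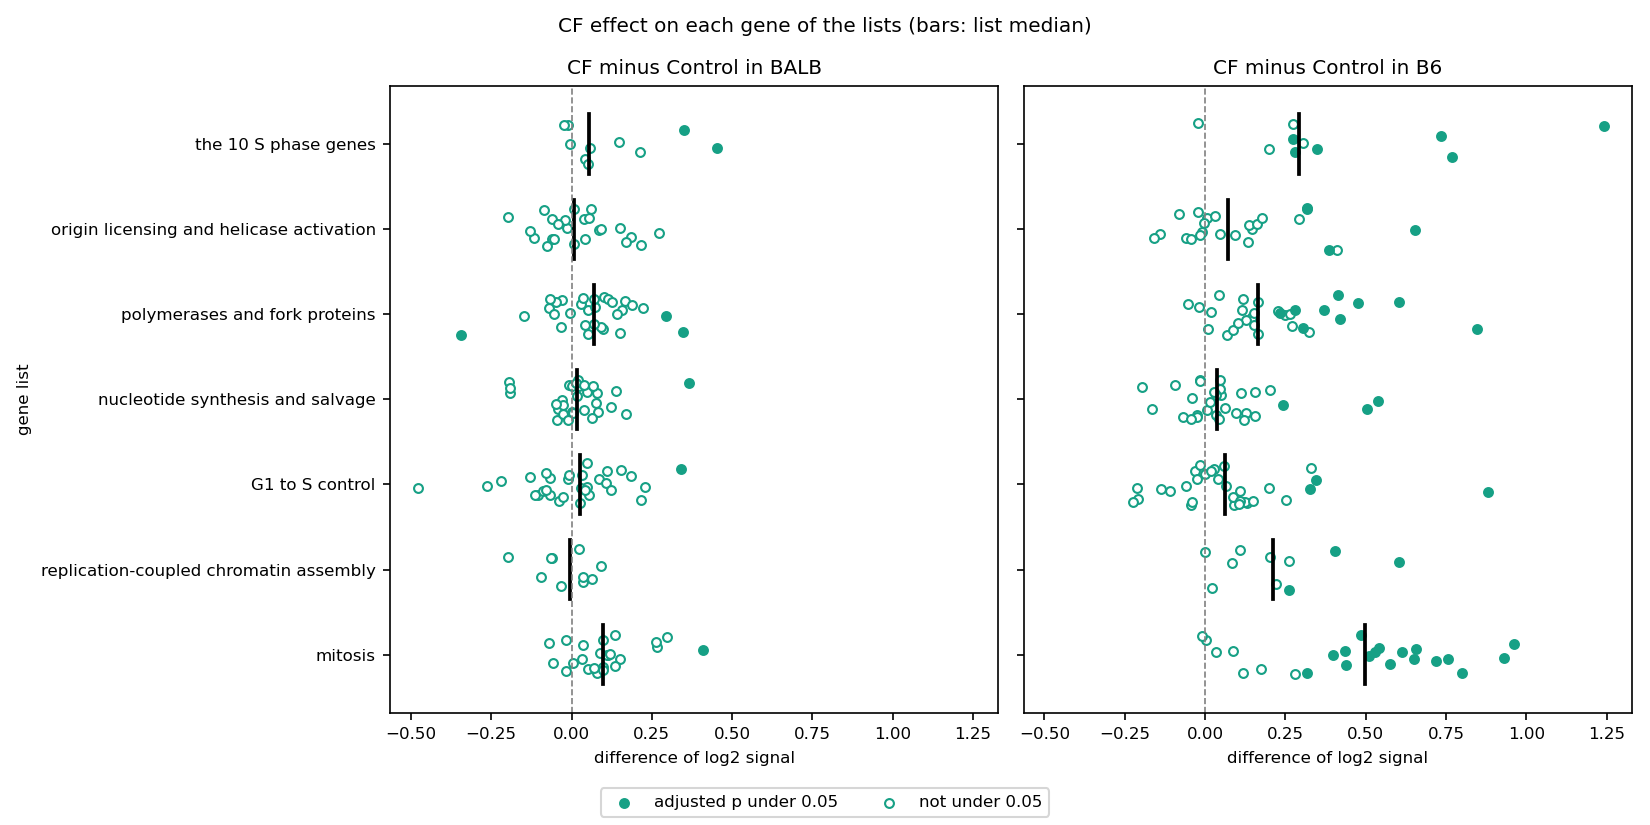
CF minus control difference of log2 signal in BALB and in B6 for each measured gene of 7 lists, the 10 genes first; filled points passed an adjusted p of 0.05 and vertical bars are list medians. In B6 the medians run from 0.04 (nucleotide synthesis and salvage) to 0.50 (mitosis).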

How the data were processed

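Total RNA of whole right lung was labelled with biotin and hybridised to 23 Affymetrix mouse arrays. The deposited table of the authors' values was taken to hold log2 signals, inferred from the values: they spanned 1.79 to 13.82 with array medians of 4.56 to 4.64. How probes were summarised, normalized or centred is not given in the sources used here, and scanner files were not used. Of 45101 probe sets, 64 array controls were left out. Symbols came from the platform annotation: 34945 probe sets had 1, 932 several and 9160 none.

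Means of the 8 groups were fitted together with limma 3.58.1 (lmFit, eBayes) in R 4.3.3 (residual degrees of freedom 15, prior 5.81). Benjamini-Hochberg adjustment ran over 45037 probe sets in each comparison. All groups shared 1 estimate of the spread, since none had over 3 arrays and an exact two-sided permutation test of 3 against 3 cannot go below 0.1. Each strain's CF effect averages the female and male effects, and the strain difference is BALB minus B6. The fit was run on simulated data with independent normal noise at its own estimated spreads. Array-wide effects and stray tissue were not simulated. Named genes were all 10 members, and from each other pathway list up to 4 of lowest p in B6 and up to 2 in BALB, with calls of the strain difference added after their values were seen; the 3 closest genes of each likeness measure are given. The members and lists were chosen with earlier results of these data known. Alternatives were a replicate block, quantile normalization, median centring, an intensity trend, no dim probe sets, only the compared groups in the fit, the mean of a gene's probe sets, array weights, and each array left out; leaving out arrays that stood apart, and sex within strain, were added after the data were seen. The number of arrays limits the precision.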

Additional observations from a re-analysis of the deposited data

Results flagged for a closer look

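Rrm1 on the first BALB CF female read 6.52, far below the other 5 BALB CF arrays (6.81 to 6.90). Of 40 sets of arrays of 1 strain and genotype examined this way this was the only 1, and chance alone picks out about 1 in 20. The CF effect differed between strains, by a test of the difference itself, for Mcm5 (-0.76), Rrm2 (-0.79), Tk1 (-0.62) and the second probe set of Mcm6 (-0.87), all BALB minus B6. The second Mcm6 probe set read 3.22 to 3.93 on BALB CF arrays and 3.43 to 4.11 on BALB control arrays, under the median of all probe sets, against 4.93 to 5.72 on B6 CF arrays and 3.91 to 5.03 on B6 control arrays.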

How the results depend on the processing

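Of the single-gene values recomputed under the alternatives, 1453 kept their direction and their side of the threshold, 74 fell below it, 10 rose past it and 48 changed sign. Most came from leaving out 1 array, often an array outside the contrast, whose removal cannot change the difference. The tally is therefore no count of separate checks. In B6, 3 genes passed without the arrays that stood apart, against 6 with all arrays, and 3 to 7 with each array left out. In BALB, 2 passed with all arrays, 1 with arrays centred on their medians, 1 with only the compared groups in the fit, 0 with the mean of a gene's probe sets, 0 without the arrays that stood apart, and 0 to 2 with each array left out. The cause was not tested. Signs turned as follows. With the mean of all probe sets, the CF effect in BALB was 0.0040 for Mcm2, 0.12 for Mcm3, -0.093 for Mcm4 and 0.033 for Mcm5. There the strain difference of the effect was -0.0076 for Rrm1, and BALB minus B6 was -0.040 for Mcm4 in CF lungs and, in controls, 0.095 for Mcm3 and 0.093 for Rrm1. In controls, array weights gave 0.012 for Mcm3 and -0.025 for Tyms, and leaving out the arrays that stood apart gave 0.0080 for Mcm3, 0.055 for Rrm1 and -0.038 for Tyms. With each array left out, the CF effect of Tyms was -0.080 to 0.039 in B6 and -0.024 to 0.10 in BALB, and its strain difference -0.000879 to 0.13. In BALB the effect was -0.094 to 0.049 for Mcm2, -0.065 to 0.050 for Mcm3 and -0.081 to 0.030 for Mcm5. BALB minus B6 was then -0.020 to 0.059 for Mcm4 in CF lungs, and in controls -0.069 to 0.011 for Mcm3, -0.12 to 0.028 for Rrm1 and -0.045 to 0.086 for Tyms. Same-numbered arrays were examined for pairing. Of the 11 same-numbered CF and control pairs of 1 strain and sex, 0 had deviations correlated over 0.1 (-0.168 to 0.0659). Of all 77 same-numbered pairs of different groups 16 did (-0.185 to 0.347). Differently numbered pairs were not compared, so a batch shared by replicate number was not tested. With the replicate block 7 genes passed in B6, Mcm3 being added (adjusted p = 0.0476), 2 in BALB and 3 in the strain difference, and Tyms in B6 was 0.0070. Signal over background was not measured here; all Tyms probe sets lay under the median of all probe sets.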
